A study of Rattus norvegicus with 4 samples.

Results

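The 34 genes described here encode aminoacyl-tRNA synthetases, the enzymes that join each amino acid to its transfer RNA. They were chosen by symbol, as names of the form letter plus ars with an optional number, together with Farsa, Farsb and Tarsl2, and are 34 of the 14137 gene identifiers in the deposited table. Symbols ending in ars2 form the mitochondrial group of 14 genes. The other 20 form the cytosolic group, which includes Kars and Gars, whose products serve both compartments. The pattern passes over Eprs, which charges both glutamate and proline in the cytosol, and Ears2, the mitochondrial glutamate enzyme. Both are given as neighbours of the set, and Mars2 is not analysed here. The pattern reads symbols and uses no measured value.

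RNA of neonatal rat ventricular myocytes was sequenced. These are heart muscle cells isolated from newborn rats and kept in short-term culture, where other cells of the heart are usually present. The Crat hairpin group was infected with lentivirus carrying a short hairpin RNA against Crat, and the control hairpin group with lentivirus carrying a control hairpin. Each group has 2 libraries, RNA was taken at day 5, and lentiviral infection is common to both groups. The labels call the groups KO and WT, although a hairpin lowers a transcript and does not delete the gene. Age, strain and pooling of the animals are not given in the sources used here. Crat encodes carnitine acetyltransferase, an enzyme of mitochondria that transfers acetyl groups from coenzyme A to carnitine, and the study's title links its depletion to DCM.

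The cell has a pair of charging systems. Cytosolic enzymes feed the ribosomes that translate nuclear messages, while the mitochondrial enzymes, also made from nuclear genes and then imported, feed the organelle's own ribosomes, which make core subunits of the respiratory chain. Synthetases fall into class I and class II by the fold of their catalytic domain. Several cytosolic ones sit together in the multisynthetase complex around the scaffold proteins Aimp1, Aimp2 and Eef1e1. In mammals many cytosolic synthetase genes are targets of ATF4, the transcription factor of the amino acid response, which binds a composite C/EBP-ATF element near their start sites. In humans, inherited loss of some mitochondrial synthetases, AARS2 and VARS2 among them, causes cardiomyopathy.

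That element marked a subset of the members in sequence. RefSeq windows of the rat build GRCr8, running from 250 bases before each gene's start to 50 bases after it, were found by symbol for 31 of the 34 members. The windows describe another build than the expression table, mRatBN7.2, and were joined to it by name only. The letters TGATGNAA, searched on both strands, were found in 7 of 17 cytosolic windows and in 0 of 14 mitochondrial windows. They were found in 3.98% of all 33469 windows and in 1.92% of the 10391 windows of genes tested here. The 7 genes are shown because the element has 1 form in all of them, TGATGCAA or its reverse complement TTGCATCA. Each stretch is printed on the gene's own strand with the match in capitals.
Nars1 (chr18:60275771-60275814, minus strand): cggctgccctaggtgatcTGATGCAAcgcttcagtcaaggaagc
Iars1 (chr17:15193651-15193694, minus strand): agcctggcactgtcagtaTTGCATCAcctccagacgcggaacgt
Mars1 (chr7:65023745-65023788, minus strand): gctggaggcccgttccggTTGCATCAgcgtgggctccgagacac
Tars1 (chr2:62114804-62114847, minus strand): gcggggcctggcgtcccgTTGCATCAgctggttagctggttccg
Aars1 (chr19:55908352-55908395, plus strand): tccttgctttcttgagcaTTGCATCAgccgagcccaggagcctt
Cars (chr1:208225327-208225370, minus strand): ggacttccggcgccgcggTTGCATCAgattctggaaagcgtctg
Yars1 (chr5:146820183-146820212, plus strand): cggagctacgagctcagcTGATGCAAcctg
The match began 14 bases before the annotated start in Nars1, 17 in Mars1, 24 in Iars1, 27 in Tars1 and 112 in Aars1. It began at base 18 of the gene in Cars and at base 39 in Yars1. Aars1 held another match of the search, TTTCATCA, at base 10 of the gene. A match is a description of the letters and not a bound site.

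Motifs of 3 other factors were searched in the same windows. The interferon-stimulated response element, GAAA and GAAA with any 2 bases between, was found in 0 of 31 windows and in 2.97% of windows of tested genes. The gamma-activated sequence TTCNNNGAA, which reads the same on both strands, was found in 5 windows, those of Nars2, Wars2, Qars1, Lars1 and Aars1, and in 6.85% of windows of tested genes. The NRF1 site, GCGCA and GCGC with any 1 base between, bound by a factor that drives many nuclear genes of mitochondria, was found in 3 of 14 mitochondrial windows and 3 of 17 cytosolic windows, and in 9.52% of windows of tested genes. It stood in Iars2, Pars2 and Wars2 and in Farsb, Sars1 and Tars1. All motifs were searched on both strands.

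The values behind the members were counted at very uneven depth. The deposited library columns hold RPM, the reads of a gene scaled by the total of its library and not by gene length, so levels of different genes are not compared here. Totals were 321516 and 1622998 reads in Crat hairpin replicates 1 and 2, and 23680064 and 1321735 reads in control hairpin replicates 1 and 2. Cytosolic members held a median of 38.5 and 224 reads in the Crat hairpin libraries, against 2883 and 168 in the control hairpin libraries. Mitochondrial members held a median of 7 and 27.5 reads in the Crat hairpin libraries, against 317 and 18.5 in the control hairpin libraries. The 95% intervals of the log2 differences accordingly had a median half-width of 0.31 in the cytosolic group and 0.81 in the mitochondrial group. The labels do not state separate cultures for the libraries within a group, so p-values measure only the spread between these libraries, which may be technical.

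Crat stood at 24.9 and 19.7 RPM in the Crat hairpin libraries, against 148 and 156 RPM in the control hairpin libraries, and fell by 2.72 ± 0.19 on the log2(RPM + 1) scale (SE, n = 2 libraries each; limma, Benjamini-Hochberg adjusted p = 7.3e-06). Of 9 measured cardiomyocyte markers, all present in every library, 8 fell, and their summed level was 11953 and 12303 RPM in the Crat hairpin libraries, against 30328 and 30803 RPM in the control hairpin libraries. Fibroblast markers summed to 17085 and 17413 RPM in the Crat hairpin libraries, against 23017 and 23979 RPM in the control hairpin libraries, with 3 of 9 higher and 4 lower. Smooth muscle and pericyte markers summed to 1863 and 1786 RPM in the Crat hairpin libraries, against 5164 and 5271 RPM in the control hairpin libraries, with 1 of 7 higher and 5 lower. Markers of these 3 cell types were thus lower in sum in both Crat hairpin libraries. Endothelial markers summed to 68.4 and 64.1 RPM in the Crat hairpin libraries, against 54.8 and 66.6 RPM in the control hairpin libraries. Of 5 endothelial markers tested 1 was higher and 1 lower. By limma 12.6% of all genes were higher and 6.36% lower. Leukocyte markers summed to 49.8 and 49.3 RPM in the Crat hairpin libraries, against 43.8 and 43.9 RPM in the control hairpin libraries, and none of the 8 passed by limma or reached an unadjusted p under 0.05. Rgs5, Cdh5, Vwf and Csf1r had no read in at least 1 Crat hairpin library. In bulk libraries fewer cells of a type and less RNA per cell cannot be told apart, and the part of these shifts in the results on synthetases was not tested.

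Expression of the synthetases was set between Crat hairpin and control hairpin libraries to ask whether either charging system moved when Crat was depleted. All 34 members passed the filter of a mean of at least 1 RPM, and 5 rose (14.7%): Kars, Hars1 and Rars1 in the cytosolic group, and Vars2 and Nars2 in the mitochondrial group (limma with a variance trend, Benjamini-Hochberg adjusted p under 0.05 over 12949 genes). Of all genes tested, 12.6% were called higher, so 5 of 34 is close to the background. No member was called lower, against 6.36% of all genes, and 19.0% of all genes were called in either direction. At an unadjusted p under 0.05, 12 members were higher and 5 lower, against 21.2% and 10.4% of all genes. By edgeR 5 members were higher and 4 lower, against 13.7% and 15.9% of all genes. By DESeq2 3 members were higher and 1 lower, against 6.27% and 7.26% of all genes.

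Scaling changed which cytosolic members were called. On the RPM scale the median log2 difference of all genes was 0.15, with 1631 genes higher and 823 lower. Median-of-ratios scaling lowered that median by 0.18, with 1044 genes higher (8.06%) and 1254 lower (9.68%), and TMM scaling lowered it by 0.19, with 7.76% of genes higher and 9.89% lower. Under either scaling Kars, Vars2 and Nars2 remained higher, Hars1 and Rars1 did not pass, and Iars1, Nars1 and Qars1 were lower. Differences below are given on the RPM scale, and those close to 0.15 lie at the middle of the transcriptome.

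**Figure D1:**
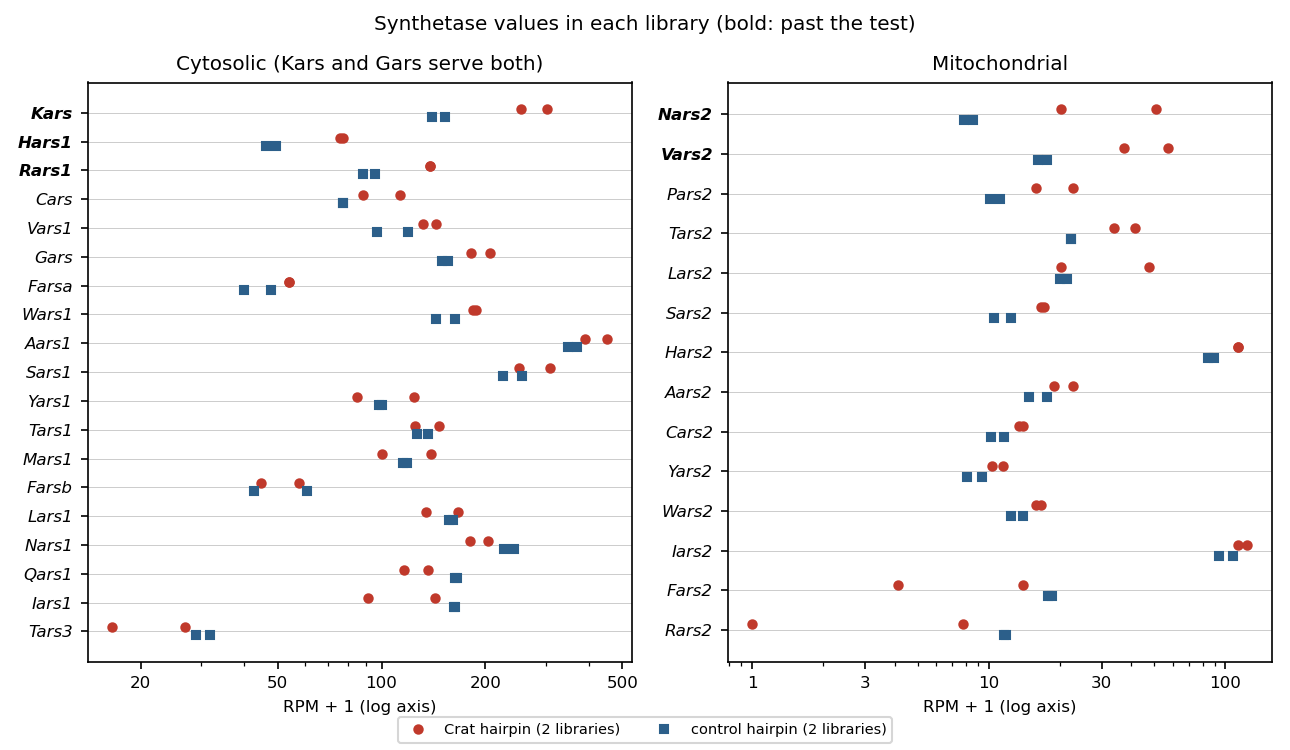
RPM + 1 of each synthetase (log axis) in the 2 Crat hairpin libraries (red circles) and the 2 control hairpin libraries (blue squares), in order of the log2 difference, with cytosolic members at left and mitochondrial members at right. Both Crat hairpin libraries lie above both control hairpin libraries in 9 of 19 cytosolic members drawn and 11 of 14 mitochondrial members. The 5 in bold that passed the test are among these. Of all genes tested 39.1% lie above the controls in this way.

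Kars, the lysine enzyme, which serves both compartments and belongs to the multisynthetase complex, changed with the best support. It stood at 302 and 253 RPM in the Crat hairpin libraries (97 and 410 reads), against 139 and 152 RPM in the control hairpin libraries (3287 and 201 reads). Both Crat hairpin libraries were well above both controls, and the exact Poisson 95% intervals, which cover counting error only, began at 245 and 229 RPM in the Crat hairpin libraries, against upper ends of 144 and 175 RPM in the control hairpin libraries. The mean was 277 ± 34.7 RPM in Crat hairpin libraries and 145 ± 9.38 RPM in control hairpin libraries (SD, n = 2 each), a ratio of 1.91. The log2 difference of Kars was 0.92 ± 0.12 (SE; limma adjusted p = 5.6e-04), and 0.73 under median-of-ratios scaling. In the authors' deposited table its adjusted p was 0.00152. Gars, the glycine enzyme and the other member that serves both compartments, stood at 205 and 181 RPM in the Crat hairpin libraries, against 155 and 149 RPM in the control hairpin libraries. Its groups did not overlap, and its log2 difference of 0.34 ± 0.12 did not pass (SE; limma adjusted p = 0.0731).

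Hars1 and Rars1, the cytosolic histidine and arginine enzymes, were higher by less. Hars1 stood at 74.6 and 76.4 RPM in the Crat hairpin libraries (24 and 124 reads), against 45.1 and 48.4 RPM in the control hairpin libraries (1067 and 64 reads), with a log2 difference of 0.68 ± 0.17 (SE; limma adjusted p = 0.0214). Rars1, a member of the complex, stood at 137 and 137 RPM in the Crat hairpin libraries (44 and 223 reads), against 87.6 and 94.6 RPM in the control hairpin libraries (2075 and 125 reads), with a log2 difference of 0.59 ± 0.13 (SE; limma adjusted p = 0.0123). In both genes the libraries of each group lay close together and the groups did not overlap. Their Poisson 95% intervals did overlap. For Hars1 the interval began at 47.8 RPM in Crat hairpin replicate 1 and reached 61.8 RPM in control hairpin replicate 2. For Rars1 these ends were 99.4 and 113 RPM. Under median-of-ratios scaling the log2 differences were 0.49 for Hars1 and 0.39 for Rars1 and neither passed (limma adjusted p = 0.0819 and 0.0684), and in the authors' deposited table their adjusted p was 0.432 and 0.368. Hars1 and Hars2 are close relatives whose reads the counting could divide between them. They also start head to head: in GRCr8 their windows share 243 bases on chromosome 18, identical on opposite strands, with 143 bases between the annotated starts. Hars2, the mitochondrial histidine enzyme, stood at 112 and 112 RPM in the Crat hairpin libraries, against 88.3 and 83.2 RPM in the control hairpin libraries. Its log2 difference of 0.38 ± 0.14 did not pass (SE; limma adjusted p = 0.0889).

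In the mitochondrial group Vars2 and Nars2, the valine and asparagine enzymes of the organelle, had the largest positive differences of the set. Vars2 stood at 56.0 and 36.4 RPM in the Crat hairpin libraries (18 and 59 reads), against 15.2 and 16.6 RPM in the control hairpin libraries (359 and 22 reads). The mean was 46.2 ± 13.9 RPM in Crat hairpin libraries and 15.9 ± 1.05 RPM in control hairpin libraries (SD, n = 2 each), a ratio of 2.90. The log2 difference of Vars2 was 1.45 ± 0.28 (SE; limma adjusted p = 0.00634), and in the authors' deposited table its adjusted p was 0.0395. Nars2 stood at 49.8 and 19.1 RPM in the Crat hairpin libraries (16 and 31 reads), against 6.88 and 7.57 RPM in the control hairpin libraries (163 and 10 reads). The Crat hairpin libraries thus differed from each other more than the controls did, although both were above both controls. The Poisson 95% interval of Nars2 began at 13.0 RPM in Crat hairpin replicate 2 and reached 13.9 RPM in control hairpin replicate 2. For Vars2 the intervals of the groups did not overlap. The log2 difference of Nars2 was 1.96 ± 0.45 (SE; limma adjusted p = 0.0136). It was 1.29 without Crat hairpin replicate 1 and 2.63 without Crat hairpin replicate 2. In the authors' deposited table the adjusted p of Nars2 was 0.0627.

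**Figure D2:**
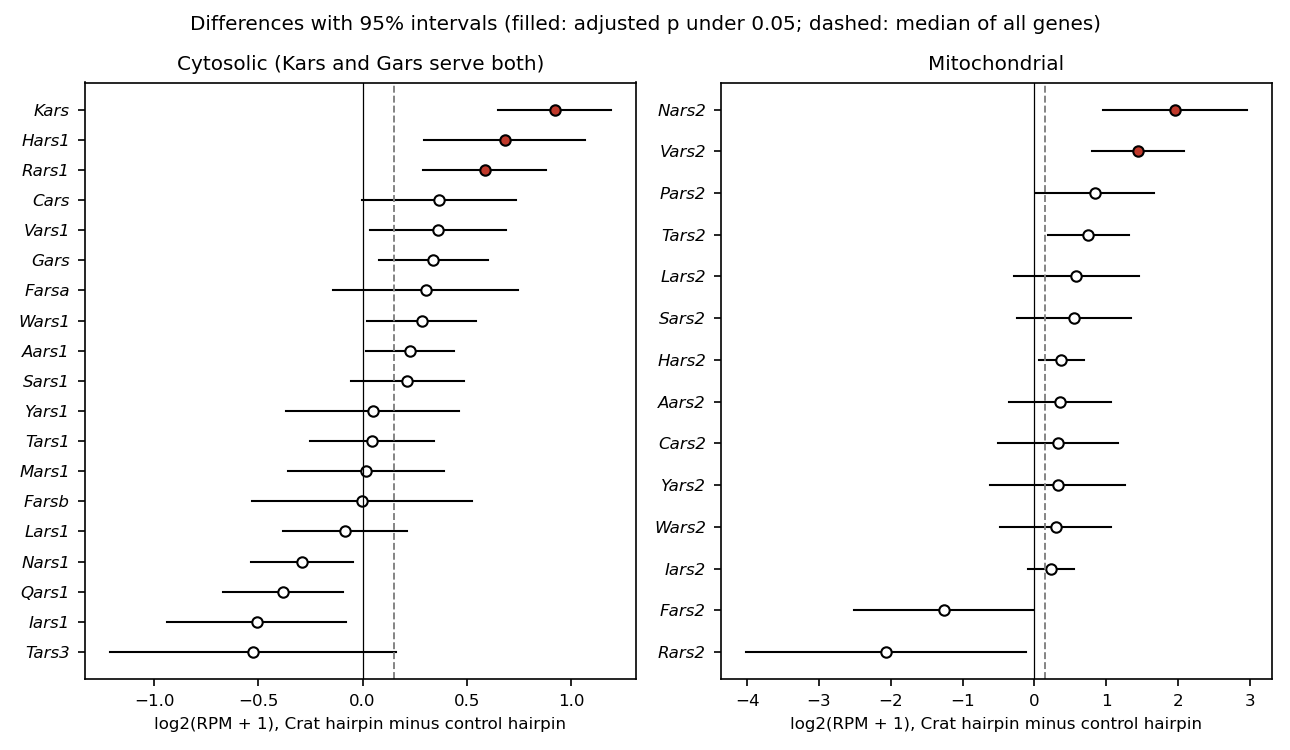
Log2(RPM + 1) difference of each synthetase, Crat hairpin minus control hairpin, with its 95% interval from limma; filled points passed the test and the dashed line is the median of all genes at 0.15. In the cytosolic group 6 of 19 points drawn lie below 0, and in the mitochondrial group 2 of 14, Fars2 and Rars2.

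Of the 5 calls, 4 needed both control libraries. Without control hairpin replicate 1 or without control hairpin replicate 2, limma called Kars alone among the 34, with adjusted p between 0.148 and 0.311 for the other 4 genes. Of all genes, 3.58% were then higher and 1.46% lower without control hairpin replicate 1, and 3.24% higher and 1.35% lower without control hairpin replicate 2. Without Crat hairpin replicate 2 it called 13 members higher and 5 lower, against 27.7% and 20.3% of all genes, and the members added were Cars, Gars, Sars1, Vars1, Hars2, Lars2, Pars2 and Tars2 as higher and Iars1, Qars1, Tars3, Fars2 and Rars2 as lower. Without Crat hairpin replicate 1 it called 7 members higher and 1 lower, against 20.1% and 10.3% of all genes, and the members added were Aars1 and Hars2 as higher and Nars1 as lower. With the reads of all libraries thinned to the shallowest in 1 random draw, none of the 5 passed, with adjusted p = 0.0549 for Kars and from 0.0752 for Rars1 to 0.179 for Vars2 for the others. The log2 differences of all 5 stayed positive under every alternative run.

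The remaining cytosolic members did not pass. Their log2 differences ran from 0.37 for the cysteine enzyme Cars to -0.53 for the threonine enzyme Tars3. Both ends moved when 1 library was left out: without Crat hairpin replicate 1 the values were 0.19 for Cars and -0.18 for Tars3, and without Crat hairpin replicate 2 they were 0.54 and -0.88 and passed (limma adjusted p = 0.0044 and 0.0091). Both Crat hairpin libraries were above both controls in Cars, Vars1, Gars, Farsa, Wars1 and Aars1. They were below both controls in Tars3, Iars1, Qars1 and Nars1, and the groups overlapped in Sars1, Yars1, Tars1, Mars1, Farsb and Lars1. Counting Kars, Hars1 and Rars1, 9 cytosolic members lay wholly above the controls and 4 wholly below. Among all genes tested those shares were 39.1% and 21.7%.

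Iars1, Nars1 and Qars1, the isoleucine, asparagine and glutamine enzymes, were the cytosolic members called lower under other scalings. Iars1 stood at 90.2 and 142 RPM in the Crat hairpin libraries, against 162 and 161 RPM in the control hairpin libraries, with a log2 difference of -0.51 (limma adjusted p = 0.0997). Nars1 stood at 202 and 179 RPM in the Crat hairpin libraries, against 225 and 241 RPM in the control hairpin libraries, with a log2 difference of -0.29 (limma adjusted p = 0.0968). Qars1 stood at 115 and 136 RPM in the Crat hairpin libraries, against 164 and 162 RPM in the control hairpin libraries, with a log2 difference of -0.38 (limma adjusted p = 0.0680). All 3 were below the controls in both Crat hairpin libraries. They passed as lower under median-of-ratios scaling, at log2 differences of -0.70, -0.48 and -0.57 (limma adjusted p = 0.0318, 0.0121 and 0.0122), and by edgeR, where 15.9% of all genes were called lower. In the authors' deposited table Nars1 passed (adjusted p = 0.0253) and Iars1 and Qars1 did not (adjusted p = 0.0893 and 0.0872). Iars1 rested on 1 library, with a log2 difference of -0.18 without Crat hairpin replicate 1 and -0.83 without Crat hairpin replicate 2.

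**Figure D3:**
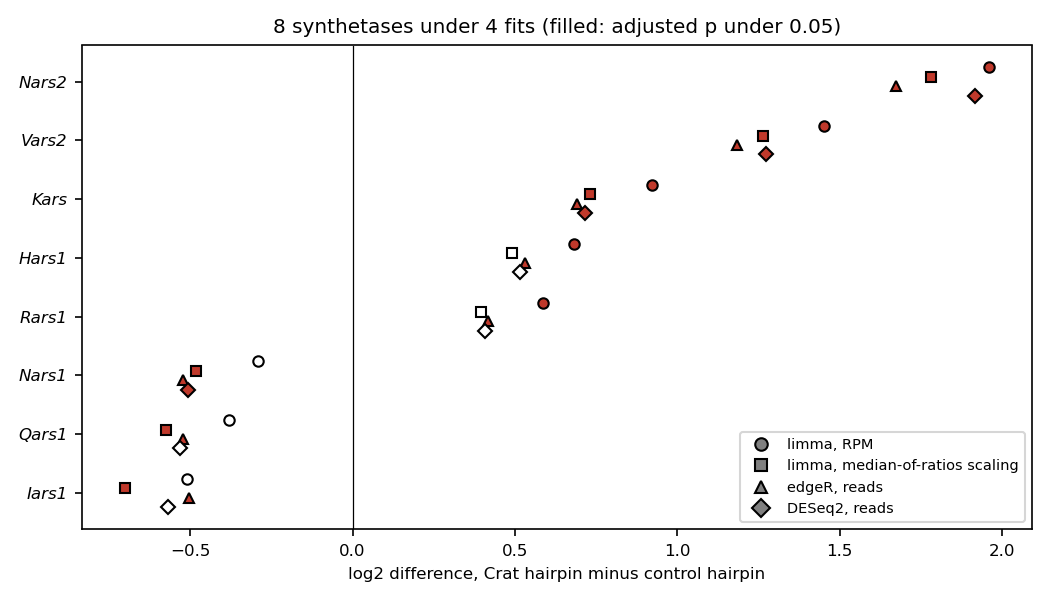
Log2 difference, Crat hairpin minus control hairpin, of the 5 synthetases called by limma on RPM and of the 3 called under other scalings, in 4 fits, limma on RPM, limma with median-of-ratios scaling, edgeR and DESeq2 (one symbol each; filled where the adjusted p is under 0.05). Nars2, Vars2 and Kars are filled in all 4 fits, while Hars1 and Rars1 are filled in 2 and the 3 genes below 0 are open in the fit on RPM.

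The remaining 12 mitochondrial members did not pass either. Of the 14 mitochondrial members, 12 had a positive log2 difference, as did 7668 of all 12949 genes, and 11 lay wholly above the controls, against 39.1% of all genes. Their median log2 difference was 0.37, against 0.13 in the cytosolic group and 0.15 over all genes. Pars2, the proline enzyme, had 21.8 and 14.8 RPM in the Crat hairpin libraries, against 10.1 and 9.08 RPM in the control hairpin libraries (log2 difference 0.84; limma adjusted p = 0.149). Tars2, the threonine enzyme, had 40.4 and 32.7 RPM in the Crat hairpin libraries, against 21.2 and 21.2 RPM in the control hairpin libraries (log2 difference 0.75; limma adjusted p = 0.0680). Lars2, the leucine enzyme, had 46.7 and 19.1 RPM in the Crat hairpin libraries, against 20.4 and 18.9 RPM in the control hairpin libraries, and its groups overlapped (log2 difference 0.59; limma adjusted p = 0.340). Its log2 difference turned on 1 library, with -0.037 without Crat hairpin replicate 1 and 1.21 without Crat hairpin replicate 2. The log2 difference was 0.56 for Sars2, 0.36 for Aars2, 0.33 for Cars2, 0.33 for Yars2, 0.30 for Wars2 and 0.23 for Iars2.

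Rars2 and Fars2, the mitochondrial arginine and phenylalanine enzymes, were the exceptions. Rars2 had 0 and 11 reads in the Crat hairpin libraries, or 0 and 6.78 RPM, against 255 and 14 reads, or 10.8 and 10.6 RPM, in the control hairpin libraries. A count of 0 in Crat hairpin replicate 1 has an exact 95% upper limit of 11.5 RPM, which lies above both controls, so a fall in that library was not detectable at this depth. Fars2 had 1 and 21 reads in the Crat hairpin libraries, or 3.11 and 12.9 RPM, against 16.8 and 17.4 RPM in the control hairpin libraries. Their log2 differences of -2.07 and -1.26 did not pass (limma adjusted p = 0.136 and 0.155), with 95% intervals from -4.02 to -0.11 for Rars2 and from -2.51 to -0.01 for Fars2. Without Crat hairpin replicate 1 the log2 differences were -0.59 for Rars2 and -0.38 for Fars2. Without Crat hairpin replicate 2 they were -3.55 and -2.14 and passed (limma adjusted p = 8.1e-05 and 3.9e-04), on 0 and 1 reads in the remaining Crat hairpin library. Rars2 passed as lower by edgeR, with a log2 difference of -1.15 (adjusted p = 0.0428).

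The summed levels of each system were compared as well. The 14 mitochondrial members together had 516 and 448 RPM in the Crat hairpin libraries, against 349 and 336 RPM in the control hairpin libraries, a ratio of 1.41. The 20 cytosolic members together had 2889 and 3015 RPM in the Crat hairpin libraries, against 2575 and 2706 RPM in the control hairpin libraries, a ratio of 1.12. The groups did not overlap in either sum, and no test was made on the sums. Among all genes 39.1% lay wholly above the controls. The median log2 difference on this scale was 0.15 over all genes, against 0.13 in the cytosolic group and 0.37 in the mitochondrial group. The cytosolic group thus stood near the middle of the transcriptome.

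For 13 amino acids the table holds both a mitochondrial and a cytosolic enzyme, in 15 gene pairs since phenylalanine and threonine have an extra cytosolic gene. The mitochondrial gene had the more positive log2 difference in 10 pairs and the cytosolic gene in 5. The asparagine pair lay far apart, with 1.96 for Nars2 and -0.29 for Nars1. The arginine pair lay apart the other way, with -2.07 for Rars2, which rests on 11 reads in the Crat hairpin libraries, and 0.59 for Rars1. For valine the values were 1.45 for Vars2 and 0.36 for Vars1. In the tryptophan, cysteine and alanine pairs the genes of a pair differed by at most 0.13. These differences between genes were not tested.

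**Figure D4:**
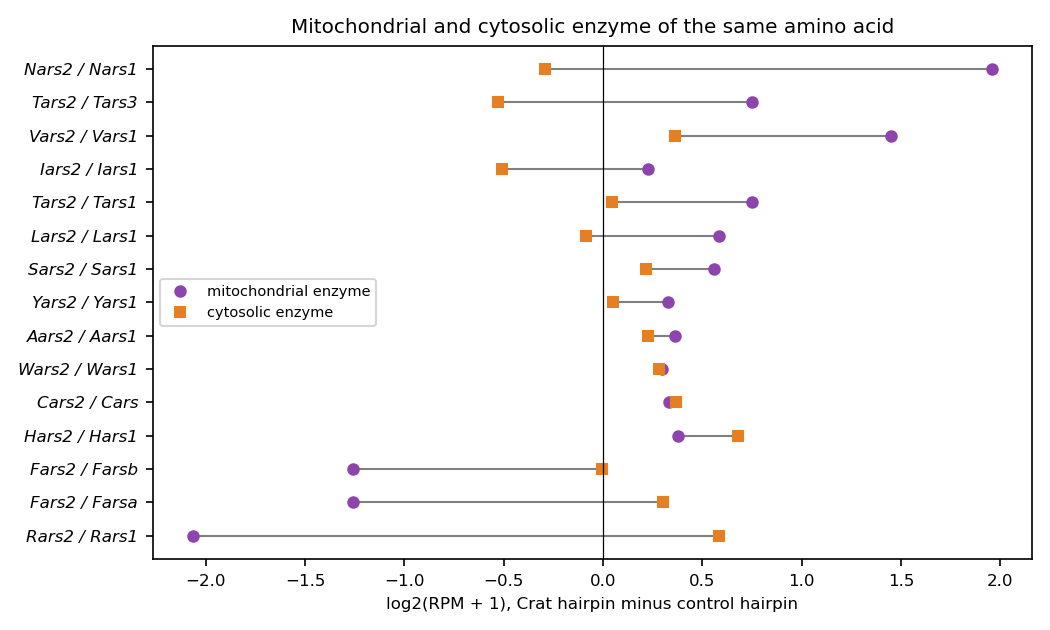
Log2(RPM + 1) difference, Crat hairpin minus control hairpin, of the mitochondrial (purple circles) and cytosolic (orange squares) enzyme of the same amino acid, 1 row per gene pair, ordered by the gap. The mitochondrial point lies to the right in 10 of 15 rows, and the widest gaps are in the asparagine row at the top and the arginine row at the bottom.

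The called genes came from both enzyme classes and from inside and outside the multisynthetase complex. Of 16 class I genes 2 rose (12.5%), Rars1 and Vars2, and of 18 class II genes 3 rose (16.7%), Kars, Hars1 and Nars2. Both shares are close to the 12.6% of all genes called higher. The median log2 differences were 0.29 for class I and 0.32 for class II. Among subunits of the complex Kars and Rars1 rose, while Iars1 and Qars1 had negative differences and Lars1 and Mars1 stood at -0.09 and 0.02. Eprs, a further subunit of the complex, had 336 and 393 RPM in the Crat hairpin libraries, against 402 and 413 RPM in the control hairpin libraries, and did not pass (log2 difference -0.16; limma adjusted p = 0.272). The scaffolds Aimp1 and Aimp2 had log2 differences of -0.16 and 0.04 and did not pass (limma adjusted p = 0.712 and 0.934); neither reached an unadjusted p under 0.05, and edgeR and DESeq2 called 0 of the 2. Ears2 had 12.4 and 3.70 RPM in the Crat hairpin libraries, 4 and 6 reads, against 3.93 and 3.03 RPM in the control hairpin libraries, and did not pass (limma adjusted p = 0.409).

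The 7 genes with a C/EBP-ATF element printed above had log2 differences of -0.51 for Iars1, -0.29 for Nars1, 0.02 for Mars1, 0.04 for Tars1, 0.05 for Yars1, 0.23 for Aars1 and 0.37 for Cars. None passed by limma, at an unadjusted p under 0.05 Aars1 was higher and Iars1 and Nars1 were lower, edgeR called Iars1 and Nars1 lower, and DESeq2 called Nars1 lower. Their median was 0.04, against 0.25 in the 10 cytosolic genes with a window and no element, of which 2 rose. Of all genes limma called 12.6% higher and 6.36% lower. At an unadjusted p under 0.05 by limma, 21.2% of all genes were higher and 10.4% lower. Called lower were 15.9% of all genes by edgeR and 7.26% by DESeq2. The difference between these sets of cytosolic genes was not tested. Together the 7 had 1101 and 1267 RPM in the Crat hairpin libraries, against 1153 and 1195 RPM in the control hairpin libraries, and these ranges overlap. None of the windows at hand for called members held the element; the window of Kars, the member with the best support, is printed whole, from chr19:56886034-56886333 on the minus strand of GRCr8, with no capitals because none of the 4 motifs was found in it.
Kars: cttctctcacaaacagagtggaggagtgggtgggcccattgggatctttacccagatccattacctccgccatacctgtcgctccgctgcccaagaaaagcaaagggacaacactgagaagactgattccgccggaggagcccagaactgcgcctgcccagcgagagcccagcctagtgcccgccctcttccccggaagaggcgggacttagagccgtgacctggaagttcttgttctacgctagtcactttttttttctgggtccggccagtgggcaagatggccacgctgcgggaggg

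Other genes of the amino acid response moved in both directions. Of 29 tested genes of the ATF4 list 7 rose and 2 fell, against 4 and 5 under median-of-ratios scaling. Their median log2 difference was 0.06. Limma called 12.6% of all genes higher and 6.36% lower, against 8.06% and 9.68% under median-of-ratios scaling. Ddit3, the stress transcription factor CHOP, had 99.5 and 137 RPM in the Crat hairpin libraries, against 34.1 and 28.0 RPM in the control hairpin libraries, and rose by 1.89 ± 0.21 (SE; limma adjusted p = 2.0e-04). Chac1, which degrades glutathione, rose by 1.28, Sesn2, a leucine sensor that restrains mTORC1, by 1.20 and the transcription factor Cebpb by 1.10. The amino acid carriers Slc7a5 and Slc1a4 fell by 1.03 and 1.02. Atf4 itself stood at -0.11 and Asns, asparagine synthetase and a much used ATF4 target, at -0.29, and neither passed (limma adjusted p = 0.536 and 0.171). In the list of eIF2 alpha kinases and their partners 3 of 9 genes rose and 0 fell. The kinases sense uncharged tRNA and other stresses upstream of ATF4. Of these 9 genes 0 were lower at an unadjusted p under 0.05, by edgeR or by DESeq2. Eif2ak2, the double-stranded RNA kinase PKR, rose by 2.38, the eIF2 phosphatase subunit Ppp1r15b by 1.46 and Impact, an inhibitor of the uncharged-tRNA sensor GCN2, by 1.01. Eif2ak4, which encodes GCN2, stood at 0.46 and did not pass (limma adjusted p = 0.215).

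Wars1, the cytosolic tryptophan enzyme, is known in humans as a gene induced by interferon gamma. It had 184 and 187 RPM in the Crat hairpin libraries, against 143 and 162 RPM in the control hairpin libraries. Both Crat hairpin libraries were above both controls, but the log2 difference of 0.28, with a 95% interval from 0.02 to 0.54, did not pass (limma adjusted p = 0.126) and was 0.09 under median-of-ratios scaling. In the same libraries 9 of 10 tested genes of the interferon gamma list rose, against 12.6% of all genes. Their median log2 difference was 3.40. Gbp5 and Gbp2, interferon-induced GTPases, rose by 6.60 and 6.16, the chemokine Cxcl10 by 8.05 and the immunoproteasome subunit Psmb8 by 4.78.

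**Figure D5:**
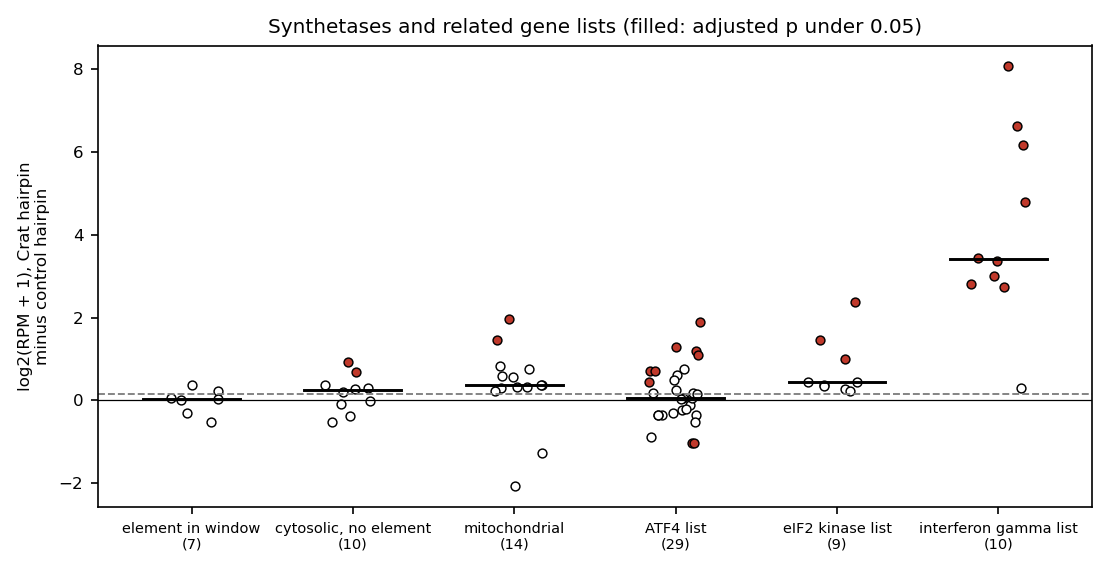
Log2(RPM + 1) difference, Crat hairpin minus control hairpin, of each gene in 3 sets of synthetases (cytosolic with the element, cytosolic with a window and no element, mitochondrial) and in 3 related lists, with the number of genes below each name; filled points passed the limma test, bars are medians and the dashed line is the median of all genes. The 7 genes with the C/EBP-ATF element centre on 0.04 with no filled point, while the interferon gamma list centres on 3.40.

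Other genes of the translation machinery were examined in the same way. Of 7 cytosolic elongation factors 4 fell and 0 rose, and 0 were higher at an unadjusted p under 0.05, by edgeR or by DESeq2. Limma called 12.6% of all genes higher and 6.36% lower. Eef1b2, the exchange factor for eEF1A, fell by 0.89, Eif5a by 0.55, Eef1g by 0.33 and Eef1a1, which carries charged tRNA to the ribosome, by 0.21. Of 10 mitochondrial translation factors none passed by limma, 0 reached an unadjusted p under 0.05, edgeR called 2 lower and DESeq2 called 0; Tufm, which carries charged tRNA to the mitochondrial ribosome, stood at -0.20 and the elongation factor Gfm1 at -0.04. Of 69 mitochondrial ribosomal proteins 1 fell, Mrpl42 by 1.21, and 0 rose, with a median of -0.15. At an unadjusted p under 0.05, 4 of these were higher and 5 lower, edgeR called 2 higher and 14 lower, and DESeq2 called 0. Over all genes 21.2% were higher and 10.4% lower at an unadjusted p under 0.05. The shares were 13.7% and 15.9% by edgeR and 6.27% and 7.26% by DESeq2. Mrpl17 and Mrpl15 stood at -0.49 and -0.03. The mitochondrial synthetases had a median of 0.37 beside these lists, and the difference between the lists was not tested.

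Genes that make or handle tRNA, the synthetases' substrate, were examined last. Of 21 genes of RNA polymerase III transcription, which makes tRNA, 2 rose, the subunit Polr3e by 1.19 and Gtf3c1, the largest subunit of factor TFIIIC, by 0.67. Of 24 genes of tRNA processing and export 2 rose, the tRNA exporter Xpot by 0.44 and Ssb, the La protein that protects new tRNA ends, by 0.42, and none did under median-of-ratios scaling. These risers made up 9.52% of the polymerase III list and 8.33% of the processing list, against 12.6% of all genes higher by limma. Under median-of-ratios scaling 8.06% of all genes were higher. In the selenocysteine list 1 of 4 rose, Secisbp2, which reads the selenocysteine signal in messages, by 1.05. None of 6 genes listed as proofreading factors and none of 4 genes of mitochondrial glutaminyl-tRNA amidation and formylation passed. Of either list 0 reached an unadjusted p under 0.05. DESeq2 called 0 genes in the polymerase III, tRNA processing and selenocysteine lists. By edgeR 1 of the amidation and formylation genes was higher, against 13.7% of all genes, and DESeq2 called 0 of either list. The most abundant of the proofreading list were Prxl2a, at 0.0022, and Aarsd1, at 0.06. Prxl2a is a peroxiredoxin-like protein with no known proofreading role, so the list is broader than its name. Gatb and Qrsl1, subunits of the amidotransferase, stood at 0.47 and 0.18.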

How the data were processed

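The values come from 4 RNA sequencing libraries, 2 per group. Per the submitters' processing notes the tools were kallisto and DESeq2 and the build was mRatBN7.2, and the making of gene values from transcripts is not described there. The deposited signal carries the heading TPM, per the file headers. Its steps show whole reads (100% of values within 0.02 of a read), so it is RPM, without division by length, and the step gave back the reads. The deposited p-value and adjusted p-value columns are the authors' own. The table has 14318 rows for 14137 gene identifiers, each used once. Genes averaging at least 1 RPM were fitted on the log2(RPM + 1) scale with limma 3.58.1 (R 4.3.3, variance trend, no covariate, Benjamini-Hochberg adjustment, threshold 0.05). The added 1 draws changes of low genes toward 0, but libraries count equally, so a shallow library with few reads can enlarge them. For Rars2, with 0 reads in Crat hairpin replicate 1, the log2 difference was -2.07, against -1.15 by edgeR and -1.36 by DESeq2. The design had assumed TPM; the test was kept. The smallest exact permutation p for 2 against 2 is 0.333.

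Members, lists, motifs and the naming rule were chosen with earlier results of these data known. The rule names every member and Crat (the results of some genes are counted in totals and are not reported here), and of each related list the 4 called genes of largest change, or the 2 of highest mean if fewer than 2 were called. Slc7a5, Slc1a4, Atf4, Asns, Eif2ak4, Mrpl42 and the markers with no read were named after their values were seen. Libraries within a group differed beyond counting error (chi-square per degree of freedom 1.30 over 10934 genes for Crat hairpin and 1.49 over 13187 for control hairpin). The fit was tested on simulated reads. Limma recovered 8 of 67 changes of 1.5-fold, 21 of 67 of 2-fold and 39 of 66 of 4-fold, with 0 false calls. A gene that did not pass is therefore not shown to be unchanged. Alternatives were other pseudocounts, filters and scalings, no variance trend, edgeR 4.0.16 and DESeq2 1.42.0 on the recovered reads, thinning, the authors' adjusted p, a replicate block and leaving out each library.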

Additional observations from a re-analysis of the deposited data

How the results depend on the processing

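Pseudocounts of 0.5 and 3, no filter and a mean of at least 5 changed no call among the 34 synthetases. The main counts were 3 cytosolic members higher and 0 lower, and 2 mitochondrial members higher and 0 lower. Cytosolic members higher came to 1 under median-of-ratios scaling, TMM scaling, DESeq2 and the authors' deposited adjusted p, and to 0 with no variance trend and after thinning. Cytosolic members lower came to 3 under median-of-ratios scaling, TMM scaling and edgeR, and to 1 under DESeq2, the authors' deposited adjusted p and the replicate block. Mitochondrial members higher came to 0 with no variance trend and after thinning and to 1 by the authors' deposited adjusted p, and mitochondrial members lower came to 1 by edgeR. With 1 library left out these counts ran from 1 to 7, from 0 to 3, from 0 to 6 and from 0 to 2; the lone library of a group is then assumed to vary like the others. After thinning, Crat had a log2 difference of -2.75 and did not pass (limma adjusted p = 0.0737), and it ran from -2.56 to -2.88 with 1 library left out. The cause of these changes was not tested, except that thinning leaves fewer reads.

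Some members that did not pass changed sign, most of them near 0; Lars2, at 0.59, did so without 1 library. Under median-of-ratios and TMM scaling Yars1 had -0.14 and -0.16, Tars1 -0.15 and -0.16, and Mars1 -0.17 and -0.19. By edgeR Sars1 had -0.027, Tars1 -0.064 and Mars1 -0.050, and by DESeq2 Sars1 had -0.0041, Yars1 -0.034, Tars1 -0.099 and Mars1 -0.088. After thinning Tars1 had -0.15, Lars1 0.14 and Wars2 -0.27. With 1 library left out the log2 difference ran from -0.23 to 0.32 for Yars1, from -0.071 to 0.16 for Tars1, from -0.22 to 0.25 for Mars1, from -0.26 to 0.25 for Farsb, from -0.24 to 0.069 for Lars1 and from -0.037 to 1.21 for Lars2.

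Over all genes 2454 were called, against 345 with no variance trend, 139 after thinning, 1616 by DESeq2, 3839 by edgeR, 1486 by the authors' deposited adjusted p and 594 to 6218 with 1 library left out. In the ATF4 list 7 higher and 2 lower became 3 and 4 by DESeq2 and by the authors' deposited adjusted p, 7 and 7 by edgeR, 0 and 0 with no variance trend or after thinning, and with 1 library left out ran from 1 to 9 and from 0 to 7. Over all genes 12.6% were higher and 6.36% lower by limma, 6.27% and 7.26% by DESeq2, and 13.7% and 15.9% by edgeR. The deviations of same-numbered libraries from their group means correlated at 0.0061 over 12949 genes. Counting error in the shallow libraries could hide a pairing, so this value cannot decide whether same-numbered libraries are paired. With the replicate block 2596 genes were called, and Iars1 was the only synthetase to change its call.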
